A study of Homo sapiens with 12 samples.

Results

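The 10 epithelial keratins KRT5, KRT6A, KRT7, KRT8, KRT13, KRT14, KRT16, KRT17, KRT18 and KRT19 were followed in TNF-α-stimulated NCM460 cells. They were taken by gene name from a table of 58735 genes, a choice made with earlier results of these data known. All 10 were among the 18079 genes with a mean level high enough to be tested. They fall into 4 simple keratins (KRT7, KRT8, KRT18 and KRT19), 3 stratified keratins (KRT5, KRT14 and KRT13) and 3 stress keratins (KRT6A, KRT16 and KRT17). Reducing HTRA2 in TNF-α-treated cells was accompanied by higher levels of 7 of the 10, where 9.35% of all genes tested were called higher and 8.08% lower, with KRT13 raised 4.24-fold, KRT16 2.39-fold and KRT17 2.37-fold in mean level, whereas the most abundant pair, KRT8 and KRT18, did not pass the test in any comparison. Of the 7, 4 also passed when only the 2 groups were fitted (KRT13, KRT16, KRT17 and KRT19), and 5 to 7 passed when 1 library was left out.

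Keratins are the intermediate filament proteins of epithelia, and each filament is built from a type I and a type II keratin in equal amounts. KRT8 and KRT18 pair in simple epithelia such as the lining of the gut, KRT5 and KRT14 pair in the basal layer of stratified epithelia, and KRT13 marks the upper layers of moist stratified epithelia. KRT6, KRT16 and KRT17 are low in resting skin and are known for their induction by wounding and inflammation, hence the name stress keratins.

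NCM460 is a cultured human cell line that the labels describe as normal colonic epithelium. The 12 poly(A) RNA libraries form 4 groups of 3: wild-type cells in medium, wild-type cells with TNF-α (an inflammatory cytokine), wild-type cells with TNF-α and 5-OH-TMT (named Bufotenidine in the labels, a trimethylated derivative of serotonin), and HTRA2-knockdown cells with TNF-α. HTRA2 is a mitochondrial serine protease, and it was lowered with siRNA. The study's text sets the knockdown against cells given a control siRNA, but no label names such a group, and the labels do not say whether the TNF-α libraries were transfected or which siRNA each knockdown library received. The knockdown and the transfection cannot be told apart here. The labels do not say that libraries of a group came from separate cultures, and the p-values measure only the spread between these libraries.

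Levels are given as FPKM, read fragments scaled by gene length and by the size of the library. Between 31008429 and 37624399 reads lay on genes in each library, and the members had from 146 to 308673 reads per library. HTRA2 stood at 15.4, 14.0 and 14.2 FPKM with TNF-α and at 7.44, 7.18 and 7.22 in the knockdown libraries, a log2 change of -0.98 ± 0.09 (SE; adjusted p = 2.8e-05, limma). TNFAIP3, an NF-κB target, rose with TNF-α from a mean of 1.22 to 28.3 FPKM. Knockdown library 2 had 2.95% of its reads on mitochondrial genes, against 3.69% to 4.68% in the other 11, and it lay farthest from its group mates, with medium library 2 next.

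The label of colonic epithelium was compared with marker genes. Of 18 colon epithelial markers, 3 (EPCAM, CDH1 and CA2) had a mean of at least 1 FPKM, and the other 15 lay under 0.1, with CDX2 listed at 0 in every library and KRT20, the keratin of differentiated gut epithelium, at a highest value of 0.033. All 10 basal and squamous epithelial markers had a mean over the 12 libraries above 1 FPKM, the lowest being DSG3 at 1.05 with a lowest library of 0.718, and among them were SFN at a mean of 728 FPKM, S100A2 at 334 and TP63, the regulator of basal epithelium, at 11.7. The summed level of those 10 ranged from 1033 to 1310 FPKM in medium, 1194 to 1222 with TNF-α alone, 1334 to 1376 with 5-OH-TMT and 1123 to 1239 in the knockdown. The summed colon list ranged from 121 to 135 FPKM in medium, 142 to 155 under TNF-α, 132 to 136 after 5-OH-TMT and 157 to 171 in the knockdown. EPCAM and CDH1, with means of 66.6 and 66.8 FPKM over the 12 libraries, made up most of that sum. At least 1 FPKM was reached by 4 of 12 mesenchymal markers and by 0 of 9 immune markers. The keratins below were thus measured in bulk epithelial RNA with both simple and basal keratins and nearly none of the RNA of colon-specific genes. Whether the same cells held both kinds was not tested.

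KRT8 and KRT18 made up most of the keratin RNA. KRT8, the type II partner, was at 1129, 1315 and 1022 FPKM in medium, 1064, 1206 and 1062 with TNF-α alone, 1227, 1263 and 1150.3 with 5-OH-TMT added, and 971, 887 and 1087 in the knockdown. KRT18, its type I partner, was at 1062, 1259 and 972 FPKM in medium, 1061, 1163 and 1107 with TNF-α alone, 1280.1, 1297.5 and 1219 with 5-OH-TMT added, and 1065, 1069 and 1149 in the knockdown. For KRT8 every neighboring pair of groups in the order of levels overlapped, and for KRT18 only 5-OH-TMT stood clear of the group below it, TNF-α. The fitted log2 changes of KRT8 were -0.05 with TNF-α (95% interval -0.29 to 0.18), 0.13 with 5-OH-TMT (-0.11 to 0.36) and -0.18 in the knockdown (-0.42 to 0.05), and those of KRT18 were 0.02 (-0.18 to 0.23), 0.19 (-0.02 to 0.39) and -0.02 (-0.23 to 0.18). None of the 6 passed the test, and each interval excluded a change of 2-fold in either direction. The sign of the KRT18 value in the knockdown turned to positive with median-of-ratios or quantile scaling.

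**Figure D1:**
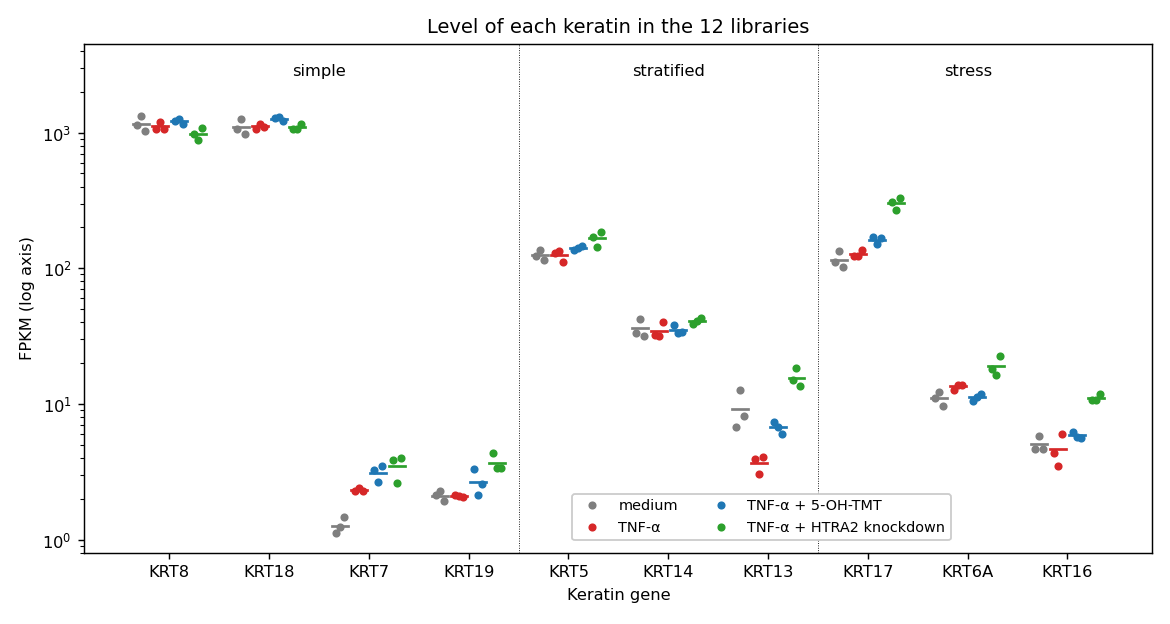
FPKM of each keratin (horizontal axis) on a log axis, with 1 point for each of the 12 libraries and a bar at the group mean; dotted lines divide the simple, stratified and stress keratins. KRT8 and KRT18 sit between 887 and 1315 FPKM in every library, while KRT13, KRT16 and KRT17 are highest in the 3 knockdown libraries.

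The level of a keratin per length depends on which length is used. The 2 genes overlap at their starts on opposite strands of chromosome 12, KRT8 at 52897187 to 52949954 and KRT18 at 52948871 to 52952901 (GRCh38), and strandedness of the counting is not given in the sources used here. The deposited table divides KRT8 by 6881 bases, which cover all its exons, whereas its main transcript in GENCODE 29 (KRT8-201) has 1882 bases. KRT18 was divided by 3218 bases against 1562 in KRT18-201. Over the main transcript alone the mean level over the 12 libraries would be 4077 FPKM for KRT8 and 2353 for KRT18, in place of 1115 and 1142, so which of the pair is higher turns with the length, while the comparisons between groups do not use it. Of the 100-base stretches of KRT8-201, 6.73% occurred exactly in transcripts of other genes, with the pseudogene KRT8P3 holding 3.98%, and none of KRT18-201 did.

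KRT7 and KRT19, simple keratins of ductal and glandular epithelium, were present at a few FPKM. KRT7 was at 1.11, 1.23 and 1.46 FPKM in medium, 2.29, 2.41 and 2.28 with TNF-α alone, 3.24, 2.67 and 3.46 with 5-OH-TMT added, and 3.83, 2.61 and 4.02 in the knockdown. It was higher in every TNF-α library than in every medium library, and higher again in all 3 libraries of each of the other TNF-α groups. The log2 change was 0.83 ± 0.16 (SE) with TNF-α (adjusted p = 0.010, limma), 0.40 ± 0.16 with 5-OH-TMT (adjusted p = 0.20) and 0.54 ± 0.16 in the knockdown (adjusted p = 0.038). The last call was lost when any TNF-α library, knockdown library 1 or knockdown library 3 was left out (adjusted p from 0.082 to 0.14), and also with no filter on low values (0.074), with only the 2 groups fitted (0.091) and without the trend (0.058). KRT7 overlaps KRT86 on the same strand and KRT7-AS and KRT87P on the other. KRT7-AS was at most at 0.46 FPKM, but KRT87P reached 1.86. KRT86 had a mean of 1.93 FPKM in medium, 2.73 with TNF-α alone, 3.36 with 5-OH-TMT added and 2.53 in the knockdown. The part of these overlaps in the KRT7 values was not tested.

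KRT19, the smallest of the type I keratins, was at 2.14, 2.28 and 1.91 FPKM in medium and 2.12, 2.11 and 2.08 with TNF-α. It was at 3.32, 2.14 and 2.56 with 5-OH-TMT and 4.35, 3.35 and 3.36 in the knockdown. The lowest knockdown library lay just above the highest library of 5-OH-TMT, and the other neighboring groups overlapped. KRT19 rose in the knockdown by a log2 change of 0.77 ± 0.15 (SE; adjusted p = 0.0044, limma) and was called with any library left out. With TNF-α its log2 change was within 0.01 of 0, with a 95% interval of -0.33 to 0.33, and with 5-OH-TMT it was 0.31 (adjusted p = 0.28).

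Of the basal pair, KRT5 was the more abundant. It was at 124, 136 and 114 FPKM in medium, 130.4, 133 and 112 with TNF-α alone, 137, 142 and 146 with 5-OH-TMT added, and 170.1, 145 and 184 in the knockdown. KRT14, its type I partner, ranged from 31.9 to 42.6 FPKM in medium, 31.6 to 40.1 with TNF-α alone, 33.5 to 38.0 with 5-OH-TMT and 39.1 to 43.2 in the knockdown. KRT14 overlapped between every neighboring pair of groups and passed no test, with a largest log2 change of 0.25 ± 0.12 (SE; adjusted p = 0.16, limma) in the knockdown. KRT5 was higher in the knockdown by 0.41 ± 0.10 (adjusted p = 0.014), a call that was lost without TNF-α library 3 or knockdown library 1 or 3 (adjusted p from 0.0547 to 0.0599). It did not pass with TNF-α (0.00, 95% interval -0.21 to 0.22) or with 5-OH-TMT (0.18, -0.03 to 0.40).

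KRT13 had the largest log2 change of the 10 in each comparison, downward with TNF-α and upward in the other two. It was at 6.82, 12.6 and 8.21 FPKM in medium, 3.91, 3.04 and 4.08 with TNF-α alone, 7.34, 6.77 and 6.03 with 5-OH-TMT added, and 14.9, 18.3 and 13.6 in the knockdown. All TNF-α libraries were below all medium libraries, and all libraries of 5-OH-TMT and of the knockdown were above all TNF-α libraries. The log2 change was -1.26 ± 0.20 (SE; adjusted p = 0.0025, limma) with TNF-α, and -1.02 without medium library 2, which had the highest medium value. This call was lost when only the 2 groups were fitted (adjusted p = 0.058). In the knockdown it was 2.05 ± 0.20 (adjusted p = 4.6e-05). With 5-OH-TMT the log2 change of 0.86 ± 0.20 did not pass over all genes tested (adjusted p = 0.092), but passed when only genes with a mean of at least 1 FPKM entered, when only the 2 groups were fitted, and with voom on reads recovered from the FPKM (adjusted p down to 0.031). The 3 comparisons share the TNF-α libraries, so a low TNF-α mean lowers the first value and raises the other two together.

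Among the stress keratins, KRT17 was the most abundant. It was at 111, 135 and 102 FPKM in medium, 124, 123 and 135 with TNF-α alone, 169, 151 and 168 with 5-OH-TMT added, and 311, 270 and 327 in the knockdown. The knockdown libraries lay above all 9 others, and the 5-OH-TMT libraries lay above all of TNF-α, whereas medium and TNF-α overlapped. KRT17 rose in the knockdown by a log2 change of 1.24 ± 0.11 (SE; adjusted p = 2.1e-05, limma). With 5-OH-TMT it was 0.35 ± 0.11 higher (adjusted p = 0.12), which passed only where the 2 groups were fitted alone (adjusted p = 0.045), and with TNF-α it was 0.15 (adjusted p = 0.59).

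KRT16, the type I partner of KRT6, was at 4.63, 5.78 and 4.68 FPKM in medium and 4.38, 3.51 and 6.05 with TNF-α. It was at 6.22, 5.75 and 5.62 with 5-OH-TMT and 10.8, 10.7 and 11.9 in the knockdown. The knockdown libraries stood clear of all others, which overlapped. The log2 change in the knockdown was 1.27 ± 0.16 (SE; adjusted p = 2.4e-04, limma), against -0.14 with TNF-α (adjusted p = 0.77) and 0.36 with 5-OH-TMT (adjusted p = 0.23).

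KRT6A was at 11.1, 12.2 and 9.65 FPKM in medium and 12.7, 13.9 and 13.7 with TNF-α. It was at 10.5, 11.2 and 11.8 with 5-OH-TMT and 18.1, 16.3 and 22.6 in the knockdown. It was the one keratin of the 10 whose 5-OH-TMT libraries all lay under the lowest TNF-α library, with a log2 change of -0.27 ± 0.12 (SE) that did not pass (adjusted p = 0.23, limma). It was higher in the knockdown by 0.48 ± 0.12 (adjusted p = 0.014), a call lost without TNF-α library 1 (adjusted p = 0.054). With TNF-α the value was 0.30 ± 0.12 (adjusted p = 0.24).

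Copies of these genes share sequence, which matters for how reads were divided between them. The coding sequences of KRT6A and KRT6B, neighbors in the type II cluster of chromosome 12, are both 1695 bases long and differ at 43 of them (97.5% identical), and KRT6C differs from KRT6A at 35. Of the 100-base stretches of the main transcript, 18.2% in KRT6A and 24.6% in KRT6B occurred exactly in another gene's transcript. The 60 coding bases below, in exon 2 of each gene on the minus strand, are the stretch where the 3 copies differ most, and show what a read needs to tell KRT6A from KRT6B. Capitals mark the 9 positions that differ among the copies. They come from GENCODE 29 transcripts (GRCh38), at chr12:52491555-52491614 for KRT6A, chr12:52450439-52450498 for KRT6B and chr12:52472099-52472158 for KRT6C.
KRT6A: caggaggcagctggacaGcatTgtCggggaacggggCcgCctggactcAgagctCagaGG
KRT6B: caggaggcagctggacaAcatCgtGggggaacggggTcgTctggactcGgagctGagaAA
KRT6C: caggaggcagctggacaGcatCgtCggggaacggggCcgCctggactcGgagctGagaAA

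KRT14, KRT16 and KRT17 are more distant copies in the type I cluster of chromosome 17. KRT14 was 89.8% identical to KRT16 and 88.5% to KRT17 over the aligned coding bases, and KRT16 and KRT17 were 84.1% identical. The share of 100-base stretches found in another gene was 5.95% for KRT14, 7.18% for KRT16 and 0.353% for KRT17. The 60 bases of exon 5 where the 3 differ most are shown because KRT16 and KRT17 passed the test in the knockdown and KRT14 did not, with the 22 differing positions in capitals. They lie on the minus strand at chr17:41583583-41583642 for KRT14, chr17:41610886-41610945 for KRT16 and chr17:41620998-41621057 for KRT17.
KRT14: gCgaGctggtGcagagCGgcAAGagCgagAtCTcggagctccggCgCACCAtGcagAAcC
KRT16: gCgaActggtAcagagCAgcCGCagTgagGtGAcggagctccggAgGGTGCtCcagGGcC
KRT17: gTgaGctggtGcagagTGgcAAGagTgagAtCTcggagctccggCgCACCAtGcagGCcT

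With TNF-α, 2 of the 10 keratins passed at an adjusted p under 0.05, KRT7 higher and KRT13 lower. Over all genes tested, 3.22% were called higher and 0.885% lower in that comparison. By the rule used in the study, at least 2-fold with an unadjusted p of at most 0.05, KRT13 was the only one of the 10 called, against 2.73% of genes in either direction. Every TNF-α library lay above every medium library for KRT6A and KRT7 and below for KRT13, and such separation was seen for 11.1% of genes upward and 8.74% downward. The exact permutation test of 3 libraries against 3 cannot give a two-sided p below 0.1, and it gave that value for these 3 genes. The median log2 change was 0.00 for the 10 keratins and 0.00 for all genes tested.

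With 5-OH-TMT in TNF-α-treated cells, 0 of the 10 passed by limma's adjusted p or by the 2-fold rule. Over all genes, 0.0332% were called higher and 0.00553% lower by the adjusted p, and 1.5% by the 2-fold rule. At an unadjusted p under 0.05 there were 5 (KRT7, KRT13, KRT16 and KRT17 higher, KRT6A lower), against 20.1% of all genes, and voom on the recovered reads called KRT13. The count over all genes depended on the fit: the 7 calls (6 higher and 1 lower) became 199 higher and 132 lower with voom, and 473 higher and 438 lower when only the 2 groups were fitted, where KRT13 and KRT17 were called. The libraries of the 2 groups did not overlap for 7 of the 10, of which 6 were higher (KRT5, KRT7, KRT13, KRT17, KRT18 and KRT19) and KRT6A was lower, and this held for 16.3% of genes upward and 15.5% downward. The median of the 10 was 0.25 on the log2 scale, with values from -0.27 to 0.86, and that of all genes was 0.00.

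In the HTRA2 knockdown, 7 of the 10 passed and all 7 were higher: 2 of 4 simple keratins (KRT7 and KRT19), 2 of 3 stratified keratins (KRT5 and KRT13) and all 3 stress keratins. Over all genes, 9.35% were called higher and 8.08% lower. KRT13, KRT16 and KRT17 also met the 2-fold rule, against 4.23% of genes. For the same 7 the lowest knockdown library exceeded the highest TNF-α library, and 17.5% of genes were so separated upward and 16.4% downward. The count was 4 when only the 2 groups were fitted. It was 5 without TNF-α library 1, 6 without TNF-α library 2, 5 without TNF-α library 3, and 5, 7 and 5 without knockdown library 1, 2 and 3. The median log2 change was 1.24 for the stress, 0.41 for the stratified and 0.26 for the simple keratins, against 0.00 for all genes. Whether the 3 groups of keratins differ was not tested, as they hold 3 or 4 genes each.

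**Figure D2:**
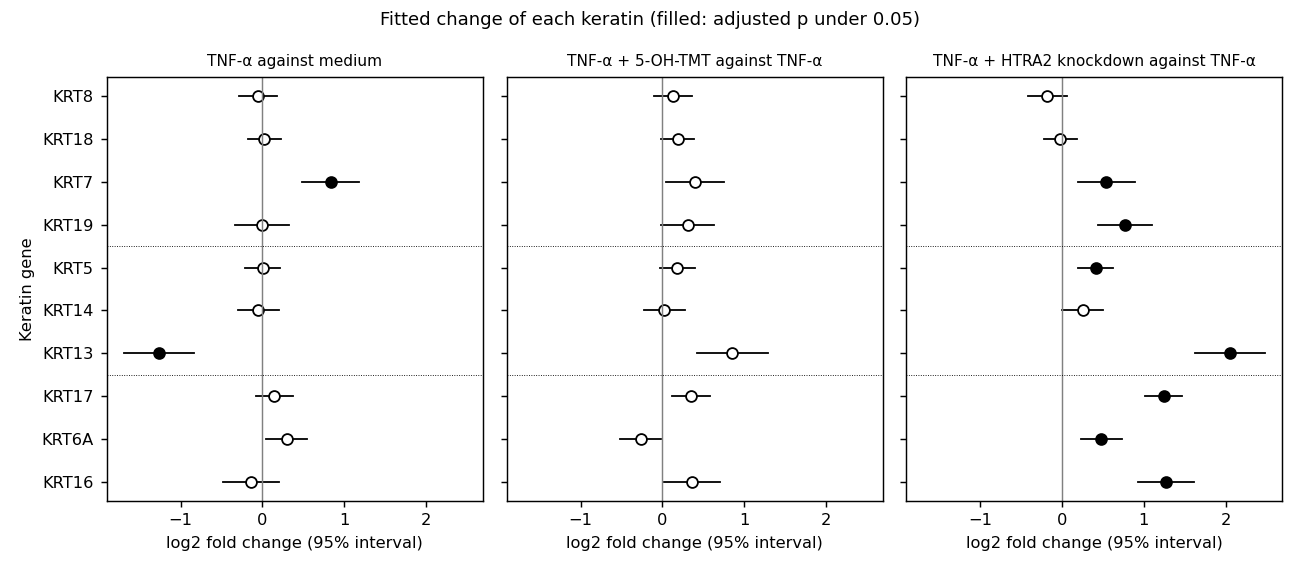
Fitted log2 fold change of each keratin (vertical axis) in the 3 comparisons, with 95% intervals; filled points have an adjusted p under 0.05 and dotted lines divide simple, stratified and stress keratins. Filled points are KRT7 and KRT13 with TNF-α, none with 5-OH-TMT added, and 7 of 10 in the knockdown, where KRT13 is highest at 2.05.

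The make-up of the keratin RNA followed from these values. The simple keratins held 88.2% ± 0.1 (SD, n = 3) of the summed FPKM of the 10 in medium, 87.8% ± 0.6 with TNF-α alone, 87.2% ± 0.7 with 5-OH-TMT and 79.0% ± 0.6 in the knockdown. The stress keratins held 5.09%, 5.22% and 5.11% in the medium libraries, 5.80%, 5.22% and 6.25% with TNF-α alone, 6.46%, 5.75% and 6.76% with 5-OH-TMT added, and 13.0%, 12.05% and 12.7% in the knockdown. The stratified keratins went from a mean of 6.45% with TNF-α to 8.45% in the knockdown. All knockdown libraries lay outside the range of the other 9 for each of the 3 shares. The TNF-α and 5-OH-TMT libraries overlapped for all 3, and the 5-OH-TMT libraries lay below those in medium for the simple share and above them for the stress share.

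The 10 keratins summed to 2558 ± 333 FPKM in medium (SD, n = 3), 2534 ± 130 with TNF-α alone, 2848 ± 89 with 5-OH-TMT and 2638 ± 194 in the knockdown. Every 5-OH-TMT library, from 2747 to 2915, lay above every library with TNF-α alone, from 2437 to 2682, and the knockdown overlapped both. As a share of all FPKM, the sum was 0.841% to 0.902% with TNF-α alone, 0.930% to 0.973% after 5-OH-TMT and 0.923% to 0.952% in the knockdown. Within that total the sum of the simple keratins was 2225 ± 130 FPKM with TNF-α and 2083 ± 145 in the knockdown, and the sum of the other 6 was 309 ± 2 and 556 ± 51. In bulk RNA, more cells of one kind and more RNA per cell cannot be told apart.

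The ratio of type I to type II keratins was highest in the knockdown libraries. Type I members (KRT13, KRT14, KRT16, KRT17, KRT18 and KRT19) over type II members (KRT5, KRT6A, KRT7 and KRT8) gave a ratio of 0.96, 0.99 and 0.98 in medium, 1.02, 0.98 and 1.09 with TNF-α alone, 1.09, 1.05 and 1.09 with 5-OH-TMT added, and 1.24, 1.34 and 1.19 in the knockdown. The ratio of KRT17 to KRT14, copies that sit near each other, went from 3.70 ± 0.28 with TNF-α to 7.36 ± 0.72 in the knockdown. KRT18 to KRT8 was 1.001 ± 0.040 and 1.12 ± 0.08, without overlap between the libraries, and KRT14 to KRT5 was 0.28 ± 0.07 and 0.25 ± 0.03, with overlap. The size of the ratios of type I to type II and of KRT18 to KRT8 rests mostly or wholly on KRT8 and KRT18 and so on the length used. The rise of type I to type II in the knockdown also holds that of KRT17. Its mean went from 127 FPKM with TNF-α to 302 in the knockdown, that of KRT18 from 1110 to 1094 and that of KRT8 from 1111 to 981. Over the main transcripts, type I to type II was 0.578 in medium, 0.610 with TNF-α alone, 0.642 after 5-OH-TMT and 0.768 in the knockdown, and KRT18 to KRT8 was 0.564 with TNF-α alone and 0.631 in the knockdown, again without overlap for either ratio between these last groups. Of the stress keratins that rose, KRT16 and KRT17 are type I and KRT6A is type II.

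**Figure D3:**
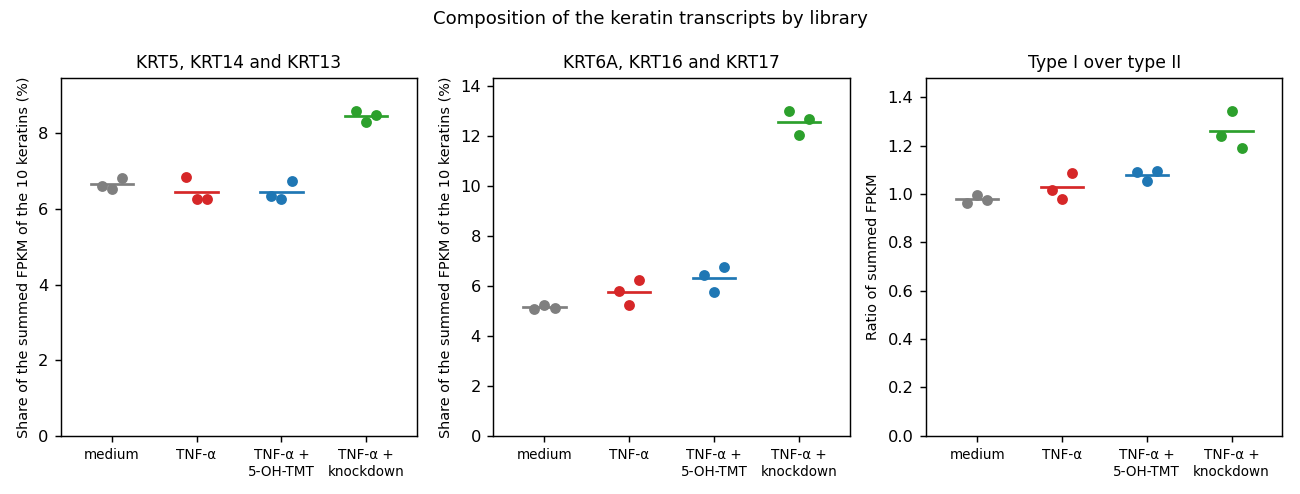
Share of the summed FPKM of the 10 keratins held by the stratified and the stress keratins (percent) and the ratio of type I to type II keratins, with 1 point per library and a bar at each group mean. The 3 knockdown libraries are highest in each panel, at 12.05% to 13.0% for the stress keratins.

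Beyond the 10, 7 of the 45 other protein-coding keratin genes had a mean of at least 1 FPKM. KRT6B, the near copy of KRT6A, was at 2.33, 1.78 and 1.44 FPKM in medium, 16.7, 16.8 and 17.6 with TNF-α alone, 20.5, 19.6 and 32.5 with 5-OH-TMT added, and 42.9, 38.1 and 40.9 in the knockdown. It rose 9.24-fold in mean level with TNF-α (log2 change 3.17 ± 0.18, SE; adjusted p = 8.7e-07, limma) and again in the knockdown (1.25 ± 0.18, adjusted p = 7.6e-04). KRT6A, over the same libraries, was 1.22 times its medium mean with TNF-α. The ratio of KRT6B to KRT6A was 0.17 ± 0.04 (SD, n = 3) in medium, 1.27 ± 0.05 with TNF-α alone, 2.15 ± 0.52 with 5-OH-TMT and 2.18 ± 0.32 in the knockdown. KRT6C stayed low, at most at 0.565 FPKM. How reads shared by the copies were assigned is not given in the sources used here.

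KRT15, a basal keratin whose gene lies next to KRT13 and KRT19 on chromosome 17 (KRT13 41500981 to 41505705, KRT15 41513743 to 41522529, KRT19 41523617 to 41528308), was lowest with TNF-α alone and highest in the knockdown, as was KRT13. It was at 15.2, 21.6 and 17.5 FPKM in medium, 12.6, 9.97 and 13.0 with TNF-α alone, 19.0, 15.5 and 16.8 with 5-OH-TMT added, and 39.9, 37.0 and 36.5 in the knockdown. It fell with TNF-α by 0.60 on the log2 scale (adjusted p = 0.022, limma) and rose in the knockdown by 1.67 ± 0.13 (SE; adjusted p = 1.5e-05). With 5-OH-TMT it was 0.53 higher (adjusted p = 0.096). The call with TNF-α was lost without medium library 2, medium library 3 or TNF-α library 2 (adjusted p from 0.055 to 0.095), and also with no filter, without the trend and with only the 2 groups fitted (adjusted p from 0.054 to 0.15). KRT13 and KRT15 shared no 100-base stretch with any other gene, and their coding sequences were 85.3% identical.

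**Figure D4:**
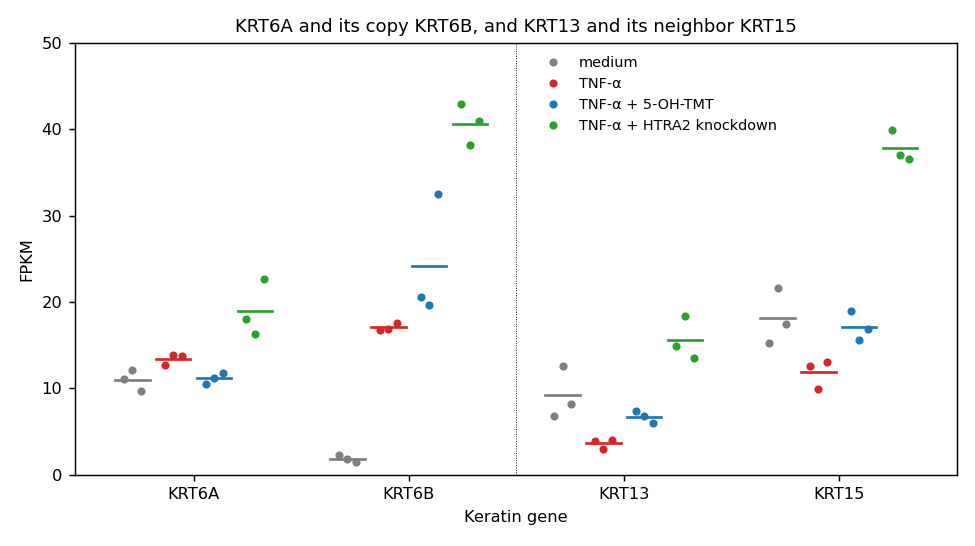
FPKM by library of KRT6A and its copy KRT6B, and of KRT13 and its neighbor KRT15, with a bar at each group mean. KRT6B rises from a mean of 1.85 in medium to 17.1 with TNF-α while KRT6A goes from 10.98 to 13.5, and KRT13 and KRT15 are both lowest with TNF-α and highest in the knockdown.

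The remaining keratins were KRT80, KRT81, KRT86, KRT10 and KRT34. KRT80, a widely expressed type II keratin, and KRT81, a hair keratin, were higher with TNF-α by 0.52 ± 0.13 (SE; adjusted p = 0.047, limma) and 0.52 ± 0.11 (adjusted p = 0.014). The KRT80 call was lost when any 1 library was left out (adjusted p from 0.053 to 0.18). It was also lost with a pseudocount of 1, no filter, no trend, a replicate block or only the 2 groups fitted (up to 0.11). The KRT81 call was lost without medium library 3 or TNF-α library 3 (0.050 and 0.064) and with only the 2 groups fitted (0.12). In the knockdown, KRT80 and KRT81 did not pass. KRT34 was 0.87 ± 0.23 higher there (adjusted p = 0.024, lost without TNF-α library 1 or 3 or knockdown library 2, and with no filter). KRT10, the type I keratin of differentiating epidermis, was lower in the knockdown, falling by 0.41 on the log2 scale (adjusted p = 0.0015). KRT86 passed in no comparison. It overlaps KRT81 on the other strand, and 29.4% of the 100-base stretches of KRT81 also lie in KRT86. No other keratin passed with 5-OH-TMT.

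Genes that work with keratins were counted by lists chosen with earlier results of these data known. Of 26 desmosome and keratin linker genes, 23 were tested. With TNF-α 3 rose and 1 fell. Among those that rose were LAMB3 (140.0 ± 10.6 to 276 ± 7 FPKM, SD, n = 3) and LAMA3 (17.5 to 26.2), which code for laminin chains of the epithelial basement membrane. PPL, the desmosomal periplakin, fell from 47.0 to 36.6. The PPL call was lost without medium library 1 or 2 or TNF-α library 3 (adjusted p up to 0.085, limma). It was also lost with only the 2 groups fitted and without the trend (up to 0.12). These calls stand beside 3.22% of all genes called higher and 0.885% lower. In the knockdown 9 of 23 rose and 2 fell, beside 9.35% and 8.08% of all genes, the largest rises being COL17A1 of the hemidesmosome (69.7 ± 3.2 to 126 ± 14 FPKM), DSG3, the basal desmoglein (0.81 to 1.34), LAMA3 (26.2 to 40.8) and PKP1, a plakophilin of stratified epithelia (16.7 to 24.6). The 2 that fell were PPL, from 36.6 to 25.6 FPKM, and TCHP, the keratin-binding trichoplein, from 2.25 to 1.67. The call of DSG3 was lost without TNF-α library 2 or 3. With 5-OH-TMT 0 of 23 passed. The median log2 change of the list was -0.02 with TNF-α alone, 0.02 with 5-OH-TMT and 0.31 in the knockdown.

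Of 16 other intermediate filament genes, 8 were tested, and 1 passed, in the knockdown, beside 9.35% of all genes higher and 8.08% lower. VIM, the filament protein of mesenchymal cells, fell in the knockdown from a mean of 4.59 ± 0.66 to 1.37 ± 0.22 FPKM (SD, n = 3), a log2 change of -1.68 (adjusted p = 1.7e-05, limma). Among 30 transcription factors tied to keratin genes, 27 were tested. With TNF-α 7 rose and 2 fell, beside 3.22% and 0.885% of all genes. NFKB1, a subunit of NF-κB, went from 6.89 to 17.1 FPKM, FOSL1, a partner in AP-1, from 62.2 to 132, and GRHL3, an epidermal regulator, from 0.78 to 1.74, while FOS, another AP-1 partner, fell from 8.66 to 1.79. In the knockdown 11 rose and 4 fell, beside 9.35% and 8.08% of all genes. OVOL1 was at 4.74 and 9.10, OVOL2 at 1.97 and 1.08, and FOSL1 at 132 and 78.1 in TNF-α and knockdown cells. With 5-OH-TMT 0 of 27 passed. The median log2 change of the transcription factors was 0.13, 0.08 and 0.27 in the 3 comparisons, and that of the other filament genes was -0.06, -0.22 and -0.18.

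Some markers of cell type were called in the knockdown, in both directions, and their part in the result was not tested. Of the 10 basal and squamous markers, 6 rose and 2 fell in the knockdown, beside 9.35% and 8.08% of all genes. The 2 that fell were S100A2, from 354 to 262 FPKM, and TP63, from 12.7 to 9.87, and the summed list given above overlapped between the groups. Those that rose included COL17A1 and DSG3 as above, TRIM29 from 11.6 to 17.9 FPKM and FAT2 from 5.90 to 8.71, and FAT2 had fallen with TNF-α from 9.52. Both FAT2 calls were lost when either of 2 libraries was left out (medium 1 or 2 with TNF-α, and knockdown 1 or 3). Both were also lost with only the 2 groups fitted, and the FAT2 call with TNF-α without the trend (adjusted p up to 0.14, limma). The TRIM29 call was lost with only the 2 groups fitted (adjusted p = 0.055). Of the 3 colon markers that were tested, CDH1 went from 64.2 to 84.8 FPKM and CA2 from 9.24 to 12.2, and EPCAM was not called. Of 4 mesenchymal markers tested, COL1A1 (1.17 to 2.89) and ACTA2 (0.86 to 1.85) rose and CDH2 (2.56 to 0.93) fell. TWIST1, tested with them, had the highest mean of the 4 (7.97 FPKM) and was not called. The mesenchymal list summed to 11.9 to 13.6 FPKM with TNF-α and 12.9 to 14.3 in the knockdown. The median log2 change in the knockdown was 0.52 for the basal, 0.40 for the 3 tested colon and 0.52 for the 4 tested mesenchymal markers. The 1 immune marker tested, CD14 of monocytes, with a mean of 0.298 FPKM, was 1.41 higher on the log2 scale in the knockdown (adjusted p = 0.016, limma), and it is named here after its values were seen. PTPRC, the marker of leukocytes, had at most 4 reads in a library, and the immune markers together stayed under 0.96 FPKM. The basal list shares COL17A1, DSG3, DSC3 and PKP1 with the linker list and TP63 with the transcription factors.

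For each keratin, the 3 genes of 11184 with a mean of at least 1 FPKM whose log2 level correlated best over the 12 libraries were listed as a description. The libraries of a group are included together, so these values mix differences between the 4 groups with differences between libraries of a group. KRT17 was closest to PSAP, GRN and IFI35 (Pearson's r = 0.99 for each), KRT16 to BST2, TMC4 and PBXIP1 (0.98, 0.98 and 0.97), KRT13 to GRAMD2A, LINC01503 and GLUL (0.97, 0.96 and 0.95), and KRT6A to CCL28, TMBIM6 and RAP2B (0.95, 0.95 and 0.94). KRT5 was closest to ATP6AP1, NFE2L1 and ATF6B (0.98, 0.98 and 0.97), and KRT14, whose neighboring groups all overlapped, reached no more than 0.88, with AL445524.1, ERFE and IST1. Of the simple keratins, KRT8 was closest to IGHMBP2, DHX30 and AIFM2 (0.99, 0.98 and 0.98), KRT18 to RAB34, SNX8 and DNPEP (0.94, 0.94 and 0.93), KRT7 to TICAM1, TAPBP and ZSWIM4 (0.98, 0.97 and 0.97) and KRT19 to LRRC23, ANO9 and HRASLS2 (0.96, 0.95 and 0.94). Among the 10 themselves the closest pair was KRT16 and KRT17 (0.94), and no keratin was among the 3 closest genes of another.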

How the data were processed

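For the poly(A) libraries the authors deposited FPKM values, 1 column for each library, beside gene lengths. The submitters' processing notes name CASAVA 1.8, HISAT2 2.0.4, HTSeq 0.9.1 and hg38. The scaling of the FPKM, the strandedness and the read length are not given in the sources used here. Gene rows of the keratins matched GENCODE 29. With the gene lengths, the deposited FPKM gave back whole reads for 100% of values. The tolerance was 0.01 for small counts and grew with large ones, so the largest counts, as of KRT8, could not fail. On the recovered reads voom called 657 genes higher and 221 lower with TNF-α, 199 and 132 with 5-OH-TMT, and 2068 and 1567 in the knockdown.

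In R 4.3.3 with limma 3.58.1, the 18079 genes averaging 0.1 FPKM or more over the libraries entered 1 linear model of log2(FPKM + 0.1) with a term for each group, 8 residual degrees of freedom and eBayes with a trend. Log2 changes are on that scale, which understates changes of low genes. Tests were two-sided, and p-values were adjusted by Benjamini-Hochberg across those genes. The study's methods give a rule of 2-fold and p of at most 0.05 without naming a test. The fit was tested on simulated data. Sequences were compared with biotite 1.4.0. The members, gene lists, naming rule and tests were chosen with earlier results of these data known. Named were all 10 members, other keratins with a mean of at least 1 FPKM, HTRA2, TNFAIP3, from each list per contrast up to 4 genes with the largest change past the threshold, and the 3 genes most like each member. Of the list genes that the rule names, 2 are not reported here. KRT6C, CD14 and list genes that fell in the knockdown (PPL, TCHP, S100A2 and TP63) were added after their values were seen. Alternatives were other pseudocounts, filters and scalings, fits of 2 groups, no trend, a replicate block, voom on recovered reads and leaving out each library.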

Additional observations from a re-analysis of the deposited data

How the results depend on the processing

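KRT13, KRT16, KRT17 and KRT19 passed in the knockdown under all 10 other settings and with any of 6 libraries left out. When only the 2 groups were fitted, 1 of the 10 keratins passed with TNF-α (2 in the report), where KRT13 was lost. In that fit 2 passed with 5-OH-TMT (0 in the report) and 4 in the knockdown (7). It takes the spread from the 2 groups alone, and the SE of KRT13 with 5-OH-TMT was 0.13, against 0.20 in the main fit. Why the counts moved was not tested. With 5-OH-TMT, 1 passed among genes with a mean of at least 1 FPKM and 1 with voom, KRT13 each time. Leaving out 1 library gave 2 calls with TNF-α, 0 with 5-OH-TMT and 5 to 7 in the knockdown.

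The share of simple keratins was 91.6%, 91.2%, 90.8% and 84.5% from reads and 83.8%, 81.9%, 81.0% and 72.8% with all keratin genes in the denominator, and 92.4%, 92.0%, 91.4% and 85.0% over the main transcripts' lengths, an alternative chosen after seeing the data, in medium, TNF-α, 5-OH-TMT and knockdown. The order of groups held, and the shift is set by gene length and by the added genes.

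Signs turned only for keratins that passed no test in that comparison. In the knockdown, KRT18 was 0.0045 with median-of-ratios and 0.11 with quantile scaling. With TNF-α, KRT19 was -0.000668 with a pseudocount of 1, -0.0050 with median-of-ratios, -0.000311 with quantile and -0.00287 with voom, and KRT5 was -0.0014 with median-of-ratios and -0.011 with quantile scaling. With 5-OH-TMT, KRT14 was -0.014 with quantile scaling. With 1 library left out, the range with TNF-α was -0.14 to 0.045 for KRT8, -0.060 to 0.13 for KRT18, -0.066 to 0.055 for KRT19, -0.056 to 0.084 for KRT5, -0.16 to 0.076 for KRT14 and -0.34 to 0.041 for KRT16. It was -0.039 to 0.13 for KRT14 with 5-OH-TMT and -0.057 to 0.013 for KRT18 in the knockdown. Where the cause is not in the setting itself, the cause was not tested.

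Over all genes, calls at an adjusted p under 0.05 numbered 742 with TNF-α (392 to 878 under other settings), 7 with 5-OH-TMT (1 to 911) and 3152 in the knockdown (2222 to 3635, and 2015 to 3337 with 1 library left out). By the 2-fold rule there were 494, 271 and 764, against 91, 14 and 155 with a pseudocount of 1, which shrinks the changes of low genes. Libraries share replicate numbers across groups, but the correlations of same-numbered libraries were 0.06 to 0.15 with TNF-α, -0.05 to 0.09 with 5-OH-TMT and -0.21 to 0.11 in the knockdown, so not every pair exceeded 0.1 and no label gives a number a shared source. With TNF-α each same-numbered pair correlated better than any other pair (0.04 at most), a hint from the data and not from the design, and in the other comparisons this did not hold. With the replicate block 2, 0 and 7 of the keratins passed, the calls of KRT80 and KRT15 with TNF-α were lost (adjusted p = 0.095 and 0.054, limma), and calls over all genes were 500 higher and 100 lower with TNF-α, 1 and 0 with 5-OH-TMT and 1492 and 1168 in the knockdown. Each group has 3 libraries, and levels of a few FPKM rest on as few as 146 reads.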
